A study of Homo sapiens with 2 samples.

Results

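The messenger RNA levels of 5 genes that link the acute-phase and NF-kB programmes to a secreted cytokine were examined in MDA-MB-231, an established cell line of human triple-negative breast cancer. The genes were chosen by symbol: CEBPB, CEBPD, BCL3, NFKBIA and CXCL8. All 5 were found among the 2046 genes of the table. The series, whose title asks how monomeric EGFR activates STAT3, holds 1 wild-type library (TAMER+/+) and 1 knockout library (TAMER-/-). TAMER is taken here as TMEM25, the gene that the series design names as knocked out, and whether the knockout was 1 clone or a pool is not given in the sources used here. Both cultures were labelled as the same line and grew in DMEM with 10% fetal bovine serum, with no agent named. Since each genotype has 1 library, nothing below could be tested against replicate spread.

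C/EBP beta (CEBPB) and C/EBP delta (CEBPD) are leucine zipper transcription factors that drive acute-phase genes downstream of IL-6 family cytokines and STAT3. NF-kB dimers are held in the cytoplasm by IkB alpha (NFKBIA), which NF-kB itself induces, so that NFKBIA transcript is a common gauge of the pathway's feedback. BCL3 is an atypical, nuclear IkB that joins p50 and p52 dimers on DNA and is also described as a STAT3 target. CXCL8 (interleukin 8) is a neutrophil-attracting chemokine whose promoter is a textbook case of joint control by NF-kB, C/EBP and AP-1. MDA-MB-231 cells are known for secreting CXCL8 and IL-6.

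The promoters of the output gene and of the feedback inhibitor are shown because they carry these elements. The sequences are from RefSeq on GRCh38.p14, 5′ to 3′ on the coding strand, starting 250 bases before the annotated start site and ending before the first exon base in GENCODE 29. Capitals mark matches, on both strands, to the kB motif GGNNNTTCC and the STAT motif TTCNNNGAA. They also mark matches to a spaced C/EBP motif, TTGCNNAA, and to a shorter one that keeps the C/EBP core without a spacer, TTGCAA. The AP-1 motif that binds Fos and Jun dimers was searched as TGACTCA with any base allowed in the middle. The last motif was the TATA box, the element that places the start of transcription in many inducible genes, searched with the letters TATAAA.
CXCL8, chr4:73740319-73740505, plus strand: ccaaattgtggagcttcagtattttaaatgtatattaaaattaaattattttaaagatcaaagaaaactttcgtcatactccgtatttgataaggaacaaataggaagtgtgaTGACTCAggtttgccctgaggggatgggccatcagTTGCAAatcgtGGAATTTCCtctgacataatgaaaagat
NFKBIA, chr14:35404750-35404999, minus strand: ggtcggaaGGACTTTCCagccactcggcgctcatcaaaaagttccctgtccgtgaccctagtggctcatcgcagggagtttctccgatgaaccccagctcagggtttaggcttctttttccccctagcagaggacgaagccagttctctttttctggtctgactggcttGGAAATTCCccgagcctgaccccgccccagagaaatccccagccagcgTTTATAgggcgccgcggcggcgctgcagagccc

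The CXCL8 promoter held an AP-1 match from -137 to -131, a short C/EBP match from -102 to -97 and a kB match from -91 to -83 relative to the RefSeq start site, with a TATA match at -31 beyond the printed stretch. The NFKBIA promoter held kB matches from -242 to -234 and from -81 to -73, and a TATA match on the opposite strand at -33. The kB match nearest the start reads GGAATTTCC in CXCL8 and GGAAATTCC in NFKBIA, and both match on either strand. No match overlapped one of another motif. In BCL3 the kB letters matched on the opposite strand at -105 to -97 and again just after the start, from 3 to 11. The 2 CEBPB windows, one for each RefSeq start, held only a TATA match at -29 of the downstream start. Neither the spaced C/EBP motif nor the STAT motif matched in any of these windows, which says only that those letters are not in these 300 bases. The CEBPD promoter was not analysed here. Of 35116 promoter windows of the same length, 20.1% held the kB letters, 5.51% the short C/EBP, 10.5% the spaced C/EBP, 7.66% the STAT, 7.71% the AP-1 and 11.5% the TATA letters. In the 2501 windows of genes in the table the kB share was 21.7%. A match describes letters, not a bound site.

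In the authors' deposited table all 2046 genes have a knockout-to-wild-type ratio of 2 or more, and none has a knockout value under 1. The 5 genes therefore had to be higher in the knockout library to be seen at all, and their direction is not a finding. TMEM25, EGFR and STAT3 were not analysed here. Over these genes the knockout library held 4138956 reads and the wild type 1046999, a partial sum and not the depth. Which library is the knockout was read from the expression and count headers, because the 2 log2 columns carry each other's header in all 2046 genes. Of the 12 luminal breast markers, TFF1 (5920 against 0.94) and TFF3 (128 against 3.68) were in the table, with a summed value of 6048 in the knockout and 4.62 in the wild-type library. The other 10 luminal markers, the 12 leukocyte, 8 hepatocyte and 10 fibroblast markers, and 10 mesenchymal genes that mark this line, among them VIM, were not analysed here. EPCAM, an epithelial adhesion gene chosen after its values were seen, was at 145.74 in the wild-type and 419.58 in the knockout library, and MDA-MB-231 is known for a mesenchymal phenotype. The identity of the line was not tested. TFF1 and TFF3 also had to be higher in the knockout library to be listed, so their direction is not a finding. The listing asks only for a ratio of 2, and their ratios in the authors' deposited table were far larger, 6298 and 34.7. With the other 10 luminal markers not analysed, these genes do not by themselves show a luminal difference. Any part of the TFF1 and TFF3 difference in the results below was not tested. In bulk RNA fewer cells of a type and less RNA per cell cannot be told apart.

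The expression values, scaled by the authors for length and depth in a unit they do not name, spanned a wide range among the 5 genes. NFKBIA was the most abundant, at 86.08 in the wild-type and 264.72 in the knockout library. BCL3 followed at 33.96 and 109.2. CEBPB stood at 16.6 and 60.51, and its paralog CEBPD at 9.28 and 36.12. CXCL8 was the lowest by far, at 0.40 and 2.36. The order NFKBIA, BCL3, CEBPB, CEBPD, CXCL8 was thus the same in both libraries. Of 2046 genes in the table, NFKBIA ranked 74th in the wild-type and 81st in the knockout library, and BCL3 220th and 215th. CEBPB, at 401st and 353rd, and CEBPD, at 585th and 548th, ranked lower. CXCL8 ranked 1630th and 1732nd.

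**Figure D1:**
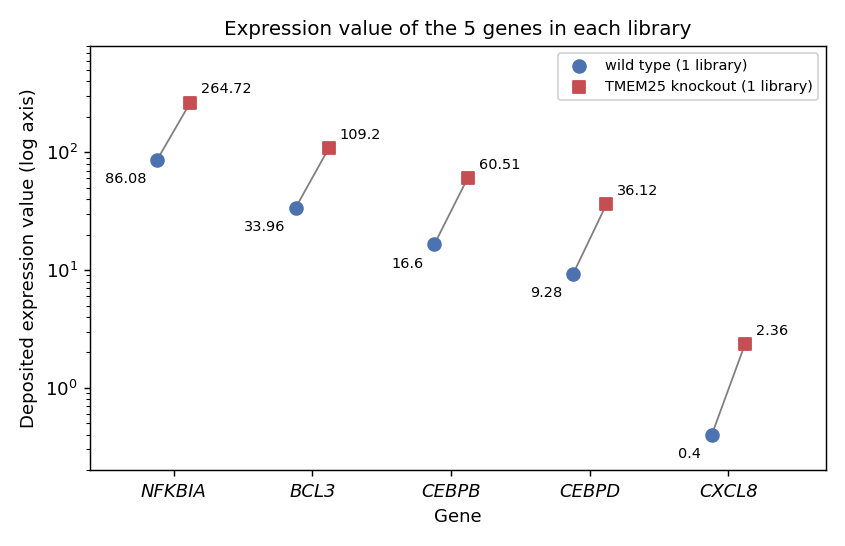
Deposited expression value (log axis) of the 5 genes in the wild-type library (circles) and the TMEM25 knockout library (squares), 1 library each, with the values printed. The order of the genes is the same in both libraries, from NFKBIA (86.08 and 264.72) down to CXCL8 (0.40 and 2.36).

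Differences were taken as log2 ratios of (value + 1), and reads as a fold divided by 1.16. This is the median quotient, knockout over wild type, of reads per unit of expression in genes with at least 100 wild-type reads. It stands in for the relative depth of the libraries and ties the read-count folds to the deposited values. The 95% intervals given cover counting error only. All 5 genes were at least 2-fold higher on the log2(value + 1) scale, beside 80.7% of all genes in the table. The lower limit of the read-count fold was above 2 for all 5, beside 76.5% of all genes. None reached 4-fold on the log2 scale, which 21.3% of the table did. With so high a background share, these counts are not a result about the 5 genes. The median log2 ratio of the 5 was 1.66, against 1.33 over all 2046 genes, on a scale where the pseudocount shrinks low genes. By read counts the 4 regulators, at folds of 3.08 to 3.89, lay near the median of 3.17 over 1946 genes with a wild-type read. The quartiles of those genes were 2.35 and 6.06. CXCL8, at 16.0 from 4 wild-type reads, lay above them.

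The acute-phase factors had the highest log2 ratios of the 5. CEBPB rested on 559.57 wild-type and 2357.89 knockout reads, for a log2 ratio of 1.81 and a read-count fold of 3.65 (95% interval 3.322 to 4.004). CEBPD rested on 183.43 and 825.11 reads, for a log2 ratio of 1.85 and a fold of 3.89 (3.32 to 4.61). The paralogs differed from each other by less than counting error. Both are intronless, CEBPB on chromosome 20 from 50190734 to 50192689 on the plus strand and CEBPD on chromosome 8 from 47736909 to 47739086 on the minus strand (GENCODE 29, GRCh38). Their counts are not whole, so some reads were shared out between features. The antisense gene CEBPB-AS1 overlaps the 5′ part of CEBPB by 765 bases, and without a stated strand setting reads of the 2 cannot be told apart. In the C/EBP family list CEBPB and CEBPD were the 2 of 6 genes in the table, while CEBPA, CEBPE, CEBPG and DDIT3 were not analysed here.

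The IkB members had slightly smaller ratios and the most reads. BCL3 had 1039 wild-type and 3887 knockout reads, a log2 ratio of 1.66 and a fold of 3.24 (3.02 to 3.47). NFKBIA had 2144 and 7621 reads, a log2 ratio of 1.61 and a fold of 3.08 (2.93 to 3.23). BCL3 and NFKBIA overlapped in their intervals, as did BCL3 with each C/EBP gene, but the interval of NFKBIA lay below those of CEBPB and CEBPD. By these intervals the fold of NFKBIA was lower than that of the C/EBP genes in these 2 libraries, but only narrowly. Its upper limit was 3.229, against lower limits of 3.321 for CEBPD and 3.322 for CEBPB. The intervals treat reads as independent molecules, which they are not, so this order is not secure. BCL3 lies on chromosome 19 from 44747705 to 44760044 on the plus strand, with 9 annotated transcripts and the microRNA gene MIR8085 inside it. NFKBIA lies on chromosome 14 from 35401511 to 35404749 on the minus strand, with 10 transcripts.

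CXCL8 stood apart from its regulators in the reads behind its value. It had 4 wild-type reads and 74 knockout reads, for a read-count fold of 16.0 with an interval of 5.997 to 60.3. That interval overlapped none of the other 4, but it rests on the scaling common to all genes. The reads-per-value quotient of CXCL8 itself was far from that scaling, at 3.14, so the separation holds for read counts only. The ratio of CXCL8 values in the authors' deposited table was smaller than the read-count fold, 5.9, and lay below that interval. Whether CXCL8 separates from the other 4 by this ratio was not tested. The log2(value + 1) ratio of 1.26 was the lowest of the 5, since the pseudocount weighs most on a value of 0.40. The order of CXCL8 among the 5 therefore depends on the measure, highest by reads and by the deposited ratio and lowest on the log2(value + 1) scale. By any of them the absolute gain was small, 1.96 units against 178.64 for NFKBIA.

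**Figure D2:**
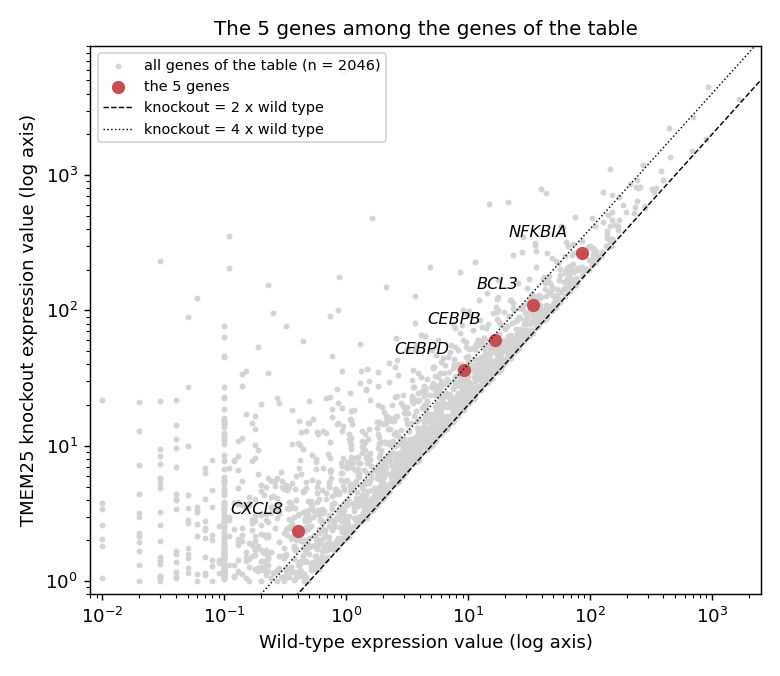
Knockout against wild-type expression value (both log axes) of all 2046 genes of the table (grey) and the 5 genes (red), with lines at 2 and 4 times the wild-type value. The 4 regulators lie between the lines and CXCL8, at 2.36 against 0.40, above the 4-fold line at low values.

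The mismatch of CXCL8 lies in the number of reads behind a unit of expression. In the knockout library 31.4 CXCL8 reads made 1 unit, and in the wild-type library 10.0 reads did. The quotient of these was 3.14, where the 4 regulators lay between 1.156 and 1.163 and the median of 1133 genes with at least 100 wild-type reads was 1.155. Among the 161 genes with 3 to 10 wild-type reads CXCL8 had the highest quotient, ahead of 2.61 for the next, with a median of 1.16. Over all 1946 genes with a wild-type read it ranked second. CXCL8 lies on chromosome 4 from 73740506 to 73743716 on the plus strand, with 3 annotated transcripts of 599 to 1705 bases. Whether its few wild-type reads were assigned to a shorter transcript was not tested.

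**Figure D3:**
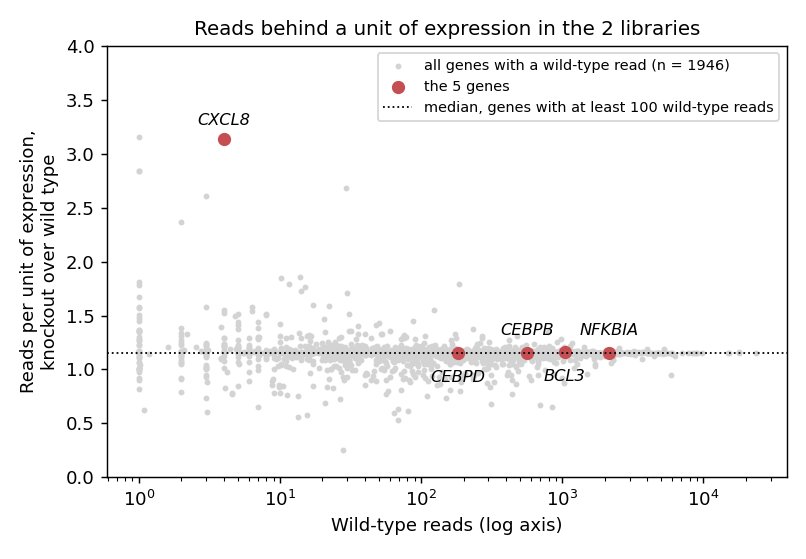
Reads per unit of expression in the knockout over the wild-type library, against wild-type reads (log axis), for 1946 genes with a wild-type read (grey) and the 5 genes (red), with the median of well-covered genes dotted. CXCL8 lies at 3.14 and the 4 regulators lie on the median of 1.155.

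Set beside its regulators, the cytokine was scarce in both genotypes. Per 1000 units of NFKBIA there were 4.65 units of CXCL8 in the wild-type and 8.92 in the knockout library. On the same scale CEBPB stood at 193 and 229 units, CEBPD at 108 and 136 and BCL3 at 395 and 413. The wild-type level of 4 reads goes against the known secretion of CXCL8 by this line, and the reason was not tested. Its receptors CXCR1 and CXCR2 were not analysed here.

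The rest of the pathway was read from 11 lists of receptors, adaptors, partners and targets, which hold 146 genes besides the 5. Of these 146, 25 were in the table. At least 2-fold on the log2(value + 1) scale were 19 of the 25, beside 80.7% of the table, and 17 had a lower fold limit above 2, beside 76.5%. Both counts are near or below the background. Their median log2 ratio was 1.11, below the 1.33 of all genes in the table.

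Upstream, the receptors gave 2 of 17. TNFRSF1A, the main TNF receptor, was at 14.07 in the wild-type and 73.92 in the knockout library, a fold of 5.23 (4.75 to 5.75), above that of each of the 4 regulators by interval. LTBR, the lymphotoxin beta receptor of the non-canonical branch, was at 21.28 and 49.41 (fold 2.42, 2.22 to 2.64). Of 24 kinases and adaptors 4 were in the table. TRAF5, a TNF receptor adaptor, had the largest fold of them at 6.86 (5.77 to 8.22), from 2.53 to 16.42. IRAK1, the kinase of the interleukin 1 receptor, was at 22.67 and 65.82, IKBKG (NEMO), the IKK scaffold, at 7.89 and 17.59, and RNF31, of the linear ubiquitin ligase, at 7.55 and 15.24, with log2 ratios of 1.497, 1.06 and 0.93. Of 11 genes listed as restraining the pathway only NLRC5 was present, at 0.33 and 1.16.

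Of the 5 NF-kB subunits NFKB1, the p105 precursor of p50, was in the table, at 8.36 and 20.56 (fold 2.46, 2.22 to 2.73). RELA, RELB, REL and NFKB2 were not analysed here. The IkB family had 4 of 6 members present. Besides NFKBIA these were the 3 nuclear members, BCL3, NFKBIZ and NFKBID, while the cytoplasmic NFKBIB and NFKBIE were not analysed here. NFKBIZ (IkB zeta) had the highest fold of the family, 7.11 (5.95 to 8.56), from 2.16 in the wild-type to 15.4 in the knockout library. Its interval lay above those of BCL3 and NFKBIA. NFKBID was at 1.88 and 6.25, with a fold of 3.12 (2.38 to 4.14) that overlapped both.

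The AP-1 and ATF factors gave 6 of 12. The AP-1 letters matched in the CXCL8 promoter, but binding by any of these factors was not tested. BATF, a lymphoid AP-1 partner, had the largest fold of all pathway genes with at least 10 wild-type reads, 14.0 (9.16 to 22.3), from 1.56 to 21.81. FOS was at 1.07 and 7.64 (fold 7.14, 5.06 to 10.3) and FOSL2 at 5.16 and 17.03 (3.18, 2.88 to 3.53). JUND and JUN, at 78.08 and 160.3 and at 10.62 and 22.24, had ratios of 2.05 and 2.09 in the authors' deposited table, near its limit of 2. FOSB was at 0.43 and 1.4, below 2-fold on the log2(value + 1) scale but with a read-count fold of 3.16 (2.03 to 5.09).

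**Figure D4:**
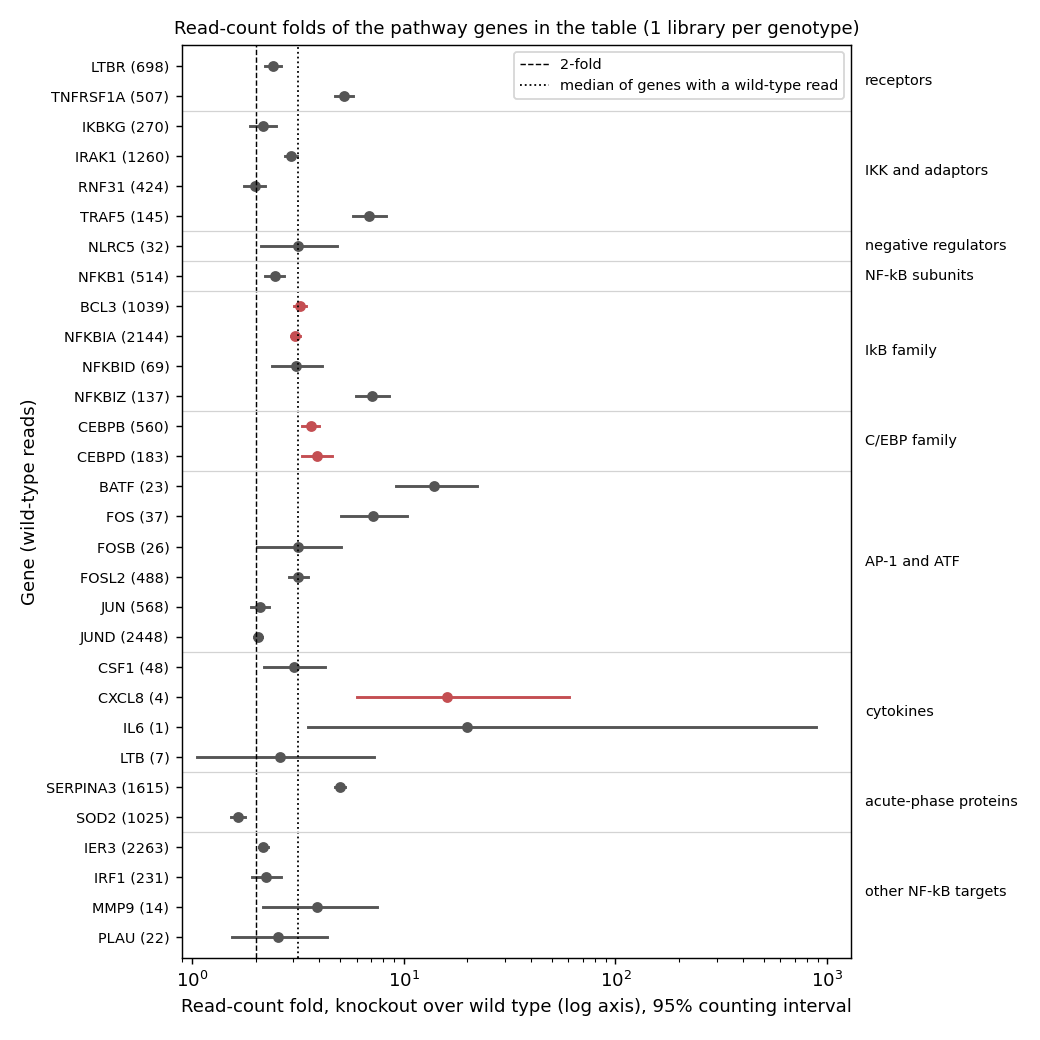
Read-count fold of knockout over wild type (log axis) with its 95% counting interval for the 30 pathway genes in the table, grouped by role, with wild-type reads in brackets and the 5 genes in red. The dashed line is 2-fold and the dotted line the median of 3.17 over 1946 genes with a wild-type read, near which NFKBIA and BCL3 lie.

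Downstream, 4 of 26 cytokines and chemokines were in the table, all at low values, and the level of the other 22 was not analysed here. CSF1, the macrophage growth factor, was at 0.75 and 2.50 from 48 and 168 reads. LTB was at 0.53 and 1.33 from 7 and 21 reads, and its interval of 1.06 to 7.23 included 2. IL6 had 1.09 and 25.04 reads, a fold of 19.9 with an interval of 3.54 to 888, so like CXCL8 it rested on almost no wild-type reads. CXCL1, CXCL2, CXCL3 and TNF, which often accompany CXCL8, were not analysed here.

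Acute-phase proteins gave 2 of 26. SERPINA3, an antichymotrypsin under C/EBP and STAT3 control, had a fold of 5.03 (4.77 to 5.31), from 63.88 to 321.17. SOD2, the mitochondrial superoxide dismutase induced by NF-kB, was at 20.67 and 45.39, a deposited ratio of 2.20 in the authors' deposited table, but its read-count fold was 1.65 (1.53 to 1.78), below 2. Other NF-kB targets gave 4 of 16. IER3, an early response gene, was at 115.55 and 251.0 and IRF1, an interferon regulatory factor, at 4.12 and 11.81. PLAU (urokinase) and MMP9, both matrix-degrading proteases, were at 0.58 and 1.46 and at 0.37 and 1.46, below 2-fold on the log2(value + 1) scale. Their read-count folds were 2.55 (1.56 to 4.36) for PLAU and 3.895 (2.16 to 7.53) for MMP9, so that the lower limit was above 2 for MMP9.

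Genes most like each of the 5 were taken as those near it by Euclidean distance of log2(value + 1) over the 2 libraries, which with 2 points describes level and ratio only. They included UBL3 and BOLA3 for CEBPB (distances 0.14 and 0.14), ATP9A for CEBPD (0.085), and MAPK3 and PGRMC1 for BCL3 (0.063 and 0.079). For NFKBIA they included NDUFA13 and NQO1 (0.047 and 0.059), and for CXCL8 HIST1H4I and DYNLRB2 (0.034 and 0.040).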

How the data were processed

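RNA of 1 wild-type and 1 knockout library was measured. Per the submitters' processing notes, HISAT2 2.0.4, CASAVA 1.4 and the build GRCh38.p12 were used. For the counting tool and strand setting, nothing is given in the sources used here. Per the file headers, the authors deposited an expression signal, a read count (an expected count, fractional for 43.7% of knockout entries), the ratio of the signals, and log2 ratios whose headers are crossed and which were not used. The number of columns not matched was 0.

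The log2 ratio used a pseudocount of 1, with exactly 2-fold counted as 2-fold, and understates low genes. Read-count folds were divided by the median reads-per-value quotient of genes with at least 100 wild-type reads, with an exact conditional (Clopper-Pearson) interval on rounded counts from scipy 1.17.1, checked on simulated data. The reads carry no molecular identifiers, so they are not independent molecules. A deposited wild-type value of 0.1 stands where the wild-type count is 0, which affects none of the 5 genes. Positions are from GENCODE 29, and RefSeq promoters were used for 4 of the 5 genes, all but CEBPD.

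The genes and lists were chosen with earlier results of these data known. Named genes were the 5, all list members in the table and the 2 nearest genes of each, of which 1 is not reported here.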

Additional observations from a re-analysis of the deposited data

How the results depend on the processing

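All 5 genes kept a read-count fold limit above 2, beside 76.5% of all genes in the table. Among genes whose mean value was 5 or more, which leaves out CXCL8, 4 did so. The share over all such genes is not given here. On the log2 scale 5 of the 5 were at least 2-fold higher. A pseudocount of 0.1 and the read counts also gave 5, while a pseudocount of 5 and the limit on the mean gave 4. It was 0 after centring on the median of all genes and 0 under the 4-fold rule. Over all 2046 genes of the table, 1651 were at least 2-fold higher on the log2 scale. A pseudocount of 0.1 gave 2011 and the read counts 1986, so 5 of the 5 under these rules is near the background. The limit on the mean gave 1117, and how many genes passed that limit is not given here. A pseudocount of 5 shrinks low genes most, so its 4 of the 5 beside 844 of all 2046 genes reflects level as well as ratio. The 1651 became 844 with a pseudocount of 5, 279 after centring and 436 under the 4-fold rule. Over the 30 pathway genes, 24 became 14, 2 and 6, in alternatives added after seeing the data. These falls follow from stricter rules, and centring subtracts 1.33, the median of a table selected for higher values. Centring put the log2 ratio of CXCL8 at -0.064 and those of the 4 regulators at 0.28 to 0.53. For CXCL8 the log2 ratio was 4.001 from read counts, and pseudocounts of 0.1 and 5 gave 2.30 and 0.45. Its 4 wild-type reads limit every statement on it. No paired analysis was possible because each genotype has 1 library.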

Other observations

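CXCL8 was 1 of 7 genes of the table whose quotient of reads per unit of expression, knockout over wild type, was above 2. They were chosen after their values were seen. The other 6 were SBSN (3.16), AMPH (2.84), ANKS6 (2.84), HNMT (2.68), the apoptosis inhibitor BCL2 (2.61) and CLCA2 (2.37). All but HNMT, with 29.14 wild-type reads, had at most 4 wild-type reads. By construction, a quotient above 1.155 puts the read-count fold above the ratio in the authors' deposited table (for HNMT 12.7 against 5.48). Among the 30 pathway genes the 3 lowest quotients were those of IL6 (0.63), SOD2 (0.87) and IRF1 (0.91), below the median of 1.155. By the same arithmetic their read-count folds were smaller than their deposited ratios. The cause of these high and low quotients was not tested.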
